A study of Mus musculus with 6 samples.

Results

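The actins are a small family of near-identical proteins, and all 6 classical actin genes of the mouse were followed across cardiac progenitor cells (CPC) and cardiomyocytes (Ctl). Members were the probe sets, outside the array's control probe sets, whose gene symbol was Acta1, Acta2, Actb, Actc1, Actg1 or Actg2, which gave 9 of the 45037 probe sets tested, or 6 of the 20677 genes. RNA was read on whole-genome mouse arrays, 3 of CPC and 3 of Ctl. By the labels, CPC arose over a long culture from adult cardiomyocytes of bi-transgenic mice that had dedifferentiated and divided, and Ctl were cardiomyocytes of adult bi-transgenic mice, described as freshly isolated. The labels do not spell out the transgenes, and the study speaks of more than 1 bi-transgenic line (αMHC-MCM;RFPfl/GFP and αMHC-MCM;Z/EG), both with an inducible Cre under a cardiomyocyte promoter and a fluorescent reporter. Which line these arrays came from, and whether the mice received tamoxifen, was not stated in the sources used here. No animal, culture or number of cells per array was named, so the p-values cover nothing beyond how far these arrays spread, and part of that spread may be technical.

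Actin monomers assemble into filaments that carry myosin in muscle and shape, anchor and move every other cell. Mammals use Actc1 (cardiac alpha-actin) and Acta1 (skeletal alpha-actin) in the sarcomere, Acta2 (smooth muscle alpha-actin) and Actg2 (smooth muscle gamma-actin) in the contractile fibres of vessels and hollow organs, and Actb and Actg1 (beta- and gamma-cytoplasmic actin) in the cytoskeleton of nearly all cells. The adult heart muscle cell relies above all on Actc1, the developing heart also uses Acta2 and Acta1, and activated fibroblasts (myofibroblasts) are classically recognised by Acta2. Serum response factor (SRF) binds the CArG box found near the start of several actin genes, together with myocardin in muscle or the actin-sensing MRTF cofactors elsewhere.

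Of the 3 muscle actin genes in the promoter table, Actc1 and Acta1 held a perfect CArG box and Acta2 only matches with 1 mismatch. Their RNAs differed on the arrays, and the windows around their starts are shown. Each runs from 250 bases before to 50 bases after the RefSeq start in GRCm38.p6, and all lie on the minus strand, at chr2:114052826-114053125 for Actc1, chr19:34255324-34255623 for Acta2 and chr8:123894726-123895025 for Acta1. Capitals mark CArG boxes, a CC and a GG around 6 bases of A or T, with up to 1 mismatch.
Actc1: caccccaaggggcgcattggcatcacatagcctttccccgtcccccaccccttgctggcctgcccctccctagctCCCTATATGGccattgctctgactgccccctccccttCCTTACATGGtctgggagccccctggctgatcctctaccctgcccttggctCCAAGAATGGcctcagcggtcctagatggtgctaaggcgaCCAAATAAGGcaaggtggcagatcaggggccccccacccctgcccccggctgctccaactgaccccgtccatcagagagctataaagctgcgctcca
Acta2: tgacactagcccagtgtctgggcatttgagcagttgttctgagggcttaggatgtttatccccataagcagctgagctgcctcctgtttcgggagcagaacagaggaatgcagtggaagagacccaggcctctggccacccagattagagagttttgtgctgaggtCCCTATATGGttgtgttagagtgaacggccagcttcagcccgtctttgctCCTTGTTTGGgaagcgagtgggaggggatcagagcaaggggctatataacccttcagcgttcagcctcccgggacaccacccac
Acta1: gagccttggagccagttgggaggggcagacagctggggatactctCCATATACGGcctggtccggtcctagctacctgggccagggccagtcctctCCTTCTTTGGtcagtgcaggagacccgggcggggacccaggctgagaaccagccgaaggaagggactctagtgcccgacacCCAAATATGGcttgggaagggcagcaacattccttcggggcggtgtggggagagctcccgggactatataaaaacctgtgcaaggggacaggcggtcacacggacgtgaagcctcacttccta

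A perfect CArG box stood in Actc1 at bases -47 to -38 and in Acta1 at bases -73 to -64, counted from the start. Only 1.63% of the 32851 RefSeq windows of this length held a perfect box, and 21.1% held one with up to 1 mismatch, so the further imperfect matches say little. Acta2 had boxes with 1 mismatch at bases -84 to -75 and -34 to -25, and the matched letters of its first one recurred in Actc1 at bases -175 to -166. Actg1, the only cytoplasmic actin with a window in the table, also had a perfect box, at bases -90 to -81. The TATAAA motif, searched on both strands and present in 13.6% of windows, stood in Acta1 at bases -7 to -2 and in Actc1 at bases 34 to 39. CATTCC, the M-CAT motif of muscle genes (14.7% of windows, both strands), was found in Acta1 and Acta2. The table matched 4 of the 6 genes, and Actb and Actg2 were not analysed here. These matches describe the letters and do not show binding.

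Of the 9 actin probe sets, 1 was higher and 1 was lower in CPC at an adjusted p under 0.05, and 7 did not pass. Over all probe sets tested, 1.06% were higher and 4.38% were lower by the same rule. The number of rises was 2 without CPC 1, 4 with array weights and 0 without moderation of the variance. Shares of all probe sets under these settings are not given here. The muscle actins gave 1 fall in 6 probe sets and the cytoplasmic actins 1 rise in 3. Without overlap of the groups, 3 actin probe sets lay above and 1 lay below all Ctl arrays, where 19.7% and 11.8% of all probe sets did. The median difference of the actin probe sets was 0.51 on the log2 scale, beside 0.15 for all probe sets. Differences are CPC minus Ctl of log2 RMA values, levels are log2 RMA values, and the highest lower quartile of any array, 6.55, was taken as background because no detection calls came with the values.

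**Figure D1:**
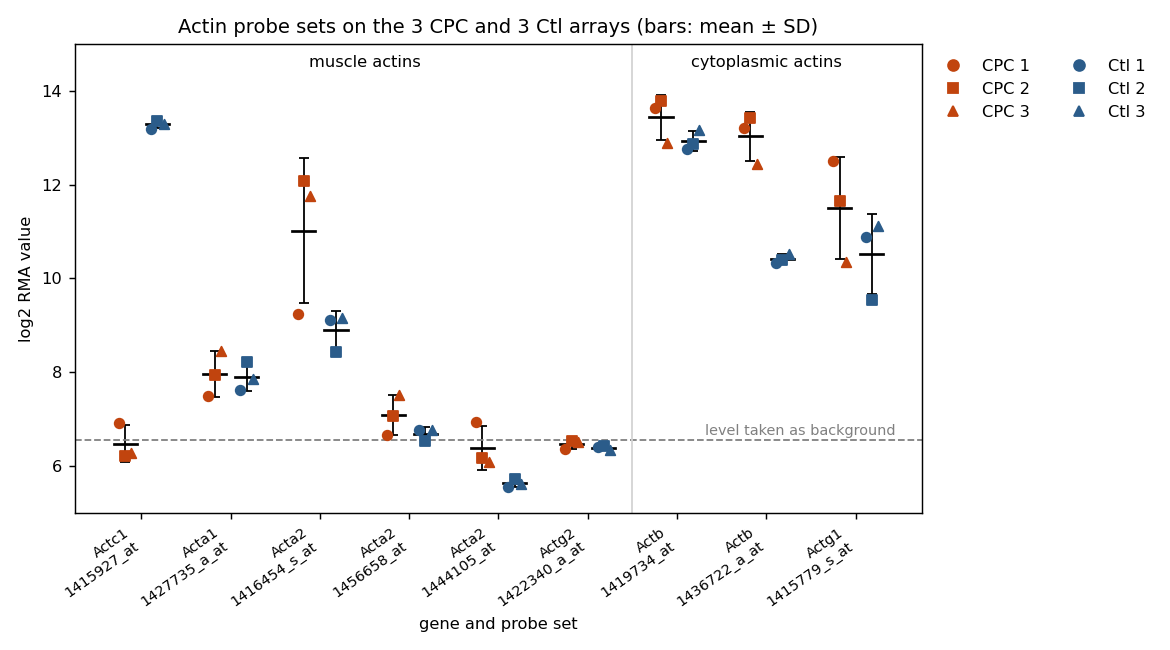
Log2 RMA value of each actin probe set on each array, with CPC left and Ctl right of each tick, the mean and SD of 3 arrays as bars and the background level of 6.55 as a dashed line. Actc1 sits at background in CPC and near 13.3 in Ctl, and the 2 Actb probe sets differ in Ctl far more than in CPC.

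The arrays themselves differed in how alike they were. Array medians lay between 7.32 and 7.47, and Pearson correlation over all probe sets was 0.792 to 0.857 among CPC arrays, 0.933 to 0.971 among Ctl arrays and 0.684 to 0.809 between the groups. CPC 3 stood apart, since it correlated with CPC 1 and CPC 2 at 0.792 and 0.794, below CPC 1 with Ctl 1 at 0.809. All 7 cardiomyocyte markers (Myh6, Tnnt2, Tnni3, Ryr2, Myl2, Actn2 and Mb) were lower in CPC, with a mean level of 6.99, 7.46 and 7.79 in CPC 1 to 3, against 13.49, 13.65 and 13.44 in Ctl 1 to 3, so the Ctl label fits its markers. In such samples, fewer cells of a type and less RNA per cell cannot be told apart.

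Actc1, the main sarcomeric actin of the adult heart, was the actin that fell. Its probe set (1415927_at) read 6.93, 6.21 and 6.29 in CPC 1, 2 and 3, against 13.19, 13.36 and 13.30 in Ctl 1, 2 and 3. All CPC arrays lay far below all Ctl arrays, and CPC 2 and CPC 3 were under the background level. The difference was -6.81 (SE 0.23, 95% interval -7.38 to -6.25, limma, adjusted p = 0.000149), which makes the transcript at least 106-fold lower in CPC. It ranked at place 22 among all probe sets by p. Leaving out each array in turn kept it between -7.04 and -6.68 and past the threshold every time. Ctl levels lay below the array maxima of 14.34 to 14.60, and saturation was not tested.

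The genes whose array pattern lay nearest to that of Actc1 were Nipsnap2 (a mitochondrial protein), Tnnt2 (cardiac troponin T) and Ckmt2 (mitochondrial creatine kinase). Likeness was the root mean square difference of log2 values centred on each gene's mean, over the 6 arrays, and came to 0.314, 0.327 and 0.388 in that order. Tnnt2 read 8.80, 7.20 and 7.66 in CPC and 14.28, 14.29 and 14.32 in Ctl, with CPC 1 the highest of its group as for Actc1. Nearest genes, here and below, were picked for this likeness, so a shared high or low array is no separate support.

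Acta1, the skeletal muscle actin that the fetal and the stressed heart also use, showed no fall, on a probe set with low values in Ctl. The probe set (1427735_a_at) gave 7.49, 7.95 and 8.46 in CPC, against 7.62, 8.22 and 7.87 in Ctl. The groups overlapped, with CPC 3 the highest and CPC 1 the lowest of all arrays. The difference was 0.066 (SE 0.30, 95% interval -0.66 to 0.79, adjusted p = 0.902), and it turned to -0.18 without CPC 3 and to -0.075 without Ctl 1. A change of more than 0.79 in either direction lay outside this interval. The mean Ctl level was only 7.90, so near background that a fall as large as that of Actc1 could not have been read here. No comparison with the fall of Actc1 is therefore drawn from this bound.

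Acta2, the smooth muscle alpha-actin, was high on CPC 2 and CPC 3 but not on CPC 1. Its main probe set (1416454_s_at, the one with the highest mean) read 9.24, 12.07 and 11.75 in CPC, against 9.13, 8.44 and 9.16 in Ctl. All CPC arrays were above all Ctl arrays, but CPC 1 only just. Means were 11.02 ± 1.55 in CPC and 8.91 ± 0.41 in Ctl (SD, n = 3 each), a difference of 2.11 (SE 0.76, 95% interval 0.27 to 3.95, 4.32-fold) that did not pass (adjusted p = 0.197, unadjusted p = 0.0307). Without CPC 1 the difference was 3.00 and passed (adjusted p = 0.00683), and without any other array it lay between 1.59 and 2.24 and did not pass.

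The other Acta2 probe sets sat near background and showed smaller differences. Probe set 1456658_at read 6.66, 7.07 and 7.52 in CPC, against 6.78, 6.53 and 6.77 in Ctl (difference 0.39, SE 0.25, adjusted p = 0.398). The groups overlapped, and CPC 1 was again the lowest CPC array. Probe set 1444105_at read 6.93, 6.17 and 6.08 in CPC, against 5.55, 5.72 and 5.63 in Ctl (difference 0.76, SE 0.26, adjusted p = 0.179). Here CPC 1 was the highest array, the reverse of the main probe set, and 5 of the 6 arrays were at or under background. Over the mean of the 3 probe sets the Acta2 difference was 1.09 (adjusted p = 0.0577), most of it from the main one. The suffix of the main probe set, unlike those of the other Acta2 probe sets, says that it can match several transcripts, and whether it also read another actin was not tested.

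Pcf11 (an mRNA 3′ end processing factor), Gem (a small GTP-binding protein) and Sgms2 (a sphingomyelin synthase) had the patterns nearest to Acta2, at root mean square differences of 0.167, 0.406 and 0.406. All were high on CPC 2 and CPC 3 and low on the other arrays, and none passed the test (adjusted p = 0.219, 0.272 and 0.199). The mean level of the smooth muscle markers did not share that pattern. It was 8.28, 8.37 and 8.18 in CPC 1 to 3, against 8.42, 8.54 and 8.70 in Ctl 1 to 3. Of the 7, only Synpo2 (a Z-disc and smooth muscle actin-binding protein) passed, and it was lower (-4.03, adjusted p = 0.00133, or -1.28 as the mean of its 4 probe sets). The fall of Synpo2 pulled the list means of CPC down against Ctl, so these means do not show whether the other markers rose. The differences of those others ran from -0.64 (Mylk) to 2.46 (Tagln), and a list mean without Synpo2 was not computed. Cnn1 (calponin) was at 6.47 to 6.81 in CPC and 6.41 to 6.48 in Ctl, close to background. Myh11 (smooth muscle myosin) read 8.03, 8.54 and 8.73 in CPC and 8.25, 8.14 and 9.50 in Ctl. Tagln (transgelin), another SRF target, read 10.76, 11.83 and 8.54 in CPC and 7.75, 7.91 and 8.08 in Ctl (difference 2.46, adjusted p = 0.164), so it was high on CPC 1 and lowest on CPC 3 among the CPC arrays, unlike Acta2.

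Of 9 markers of fibroblasts, which can carry Acta2 once activated, 3 passed, all as rises, where 1.15% of all genes rose. Col1a1 (3.33, adjusted p = 0.000432), Col1a2 (2.87, adjusted p = 0.0308) and Thy1 (1.21, adjusted p = 0.0134) were higher in CPC, and the other 6 ran from -0.38 (Lum) to 2.09 (Tcf21) and did not pass. Col1a2 did not pass without CPC 1, CPC 3, Ctl 1 or Ctl 2 and Thy1 did not pass without Ctl 1 or Ctl 2, and averaging their probe sets gave 1.72 for Col1a1 and 1.25 for Col1a2. The mean level of the list was 9.15, 8.74 and 8.79 in CPC, against 7.75, 7.27 and 8.16 in Ctl. CPC 1 was highest in this mean only through Tcf21, which read 10.89, 6.89 and 7.94 in CPC 1 to 3. Defining markers were split, since Lum was at or under background on 5 of the 6 arrays, Pdgfra read 7.75 to 8.26 in CPC and 7.94 to 8.04 in Ctl, and Tcf21 was high only on CPC 1 (10.89). Their part in the Acta2 values was not tested.

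**Figure D2:**
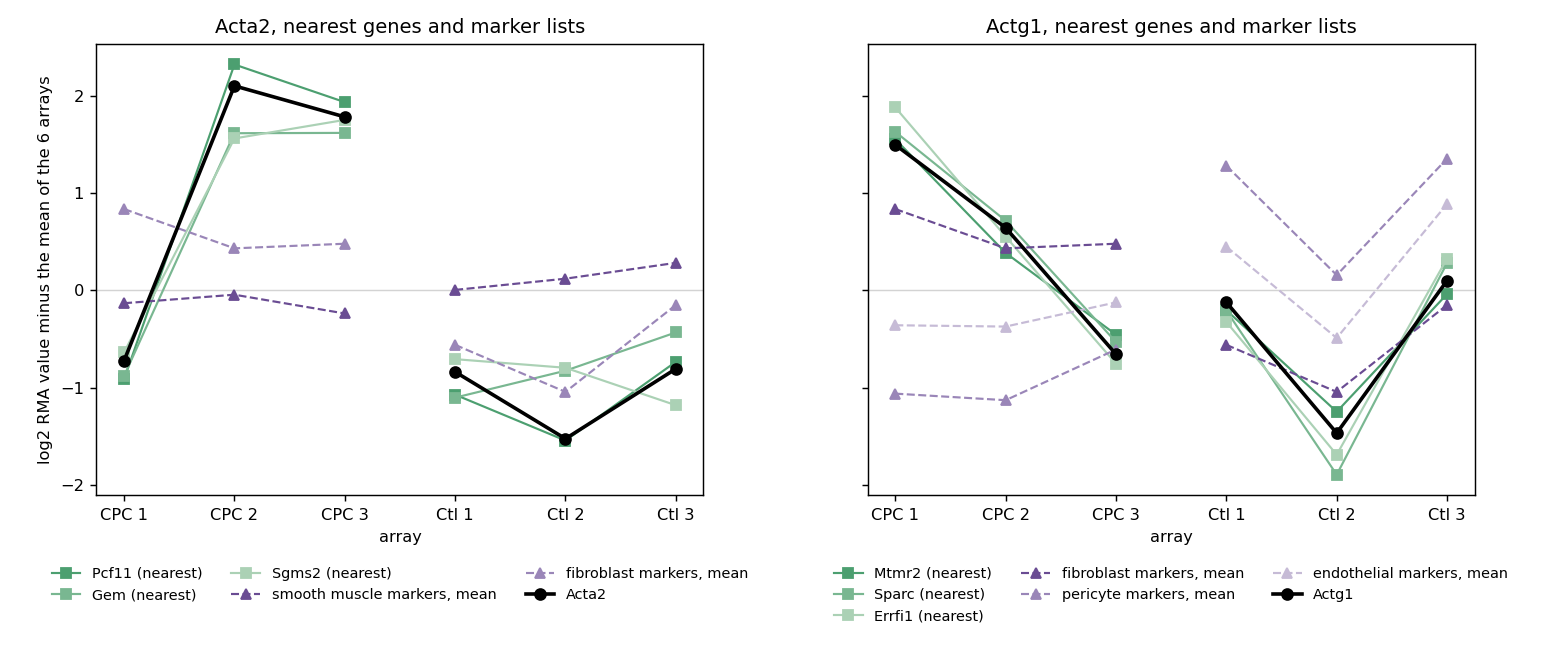
Log2 RMA value minus the mean of the 6 arrays for Acta2 (left panel) and Actg1 (right panel) in black, the 3 genes with the nearest pattern in green, and the mean of whole marker lists in dashed purple. Lines only join the values of 1 gene or list within a group. Acta2 is high on CPC 2 and CPC 3 alone, and Actg1 is highest on CPC 1 and lowest on Ctl 2.

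Actg2, the actin of visceral smooth muscle, was not above background on any array. Its probe set (1422340_a_at) read 6.36, 6.54 and 6.52 in CPC, against 6.41, 6.42 and 6.35 in Ctl. The groups overlapped and the difference was 0.078 (SE 0.14, adjusted p = 0.750), a value that gives no fold because both groups lay at background.

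Actb, the beta-actin of the cytoskeleton and a common reference gene, gave different answers from its 2 probe sets. Probe set 1419734_at read 13.63, 13.79 and 12.89 in CPC, against 12.76, 12.86 and 13.16 in Ctl. The groups overlapped because CPC 3 lay among the Ctl arrays, and the difference of 0.51 did not pass (SE 0.28, 95% interval -0.17 to 1.19, adjusted p = 0.343). Probe set 1436722_a_at read 13.21, 13.43 and 12.45 in CPC, against 10.32, 10.40 and 10.52 in Ctl. Here every CPC array lay well above every Ctl array, and Actb was 6.13-fold higher in CPC (SE 0.28, 95% interval 1.94 to 3.29 on the log2 scale, adjusted p = 0.00471). Leaving out each array kept the difference of this probe set between 2.41 and 2.91 and past the threshold, while a test without moderation of the variance put it at adjusted p = 0.0536.

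Both probe sets ordered the CPC arrays alike, with CPC 2 highest and CPC 3 lowest. The gap between them, 1419734_at minus 1436722_a_at on the same array, was 0.42, 0.36 and 0.44 in CPC, against 2.44, 2.46 and 2.64 in Ctl. The gap was steady within each group and differed by -2.11 between the groups (exact two-sided permutation test, p = 0.1, the smallest that 3 against 3 arrays can give). With 1 array left out, the difference stayed within 0.33 to 0.78 for 1419734_at and did not pass.

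The array carries 3 further probe sets for Actb, placed along the transcript as controls, which are no members. Added to the fit, all of them were higher in CPC and none overlapped. The 5′ control read 12.98, 13.25 and 12.25 in CPC, against 11.14, 11.25 and 11.28 in Ctl (difference 1.60, adjusted p = 0.0267). The middle control read 12.40, 12.54 and 11.31 in CPC, against 9.54, 10.45 and 9.97 in Ctl (difference 2.09, adjusted p = 0.0382). The 3′ control read 12.98, 13.30 and 12.62 in CPC, against 10.29, 10.85 and 10.74 in Ctl (difference 2.34, adjusted p = 0.00468). The middle and 3′ differences lay nearer to that of 1436722_a_at (2.62) than to that of 1419734_at (0.51), and the 5′ difference lay about midway.

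**Figure D3:**
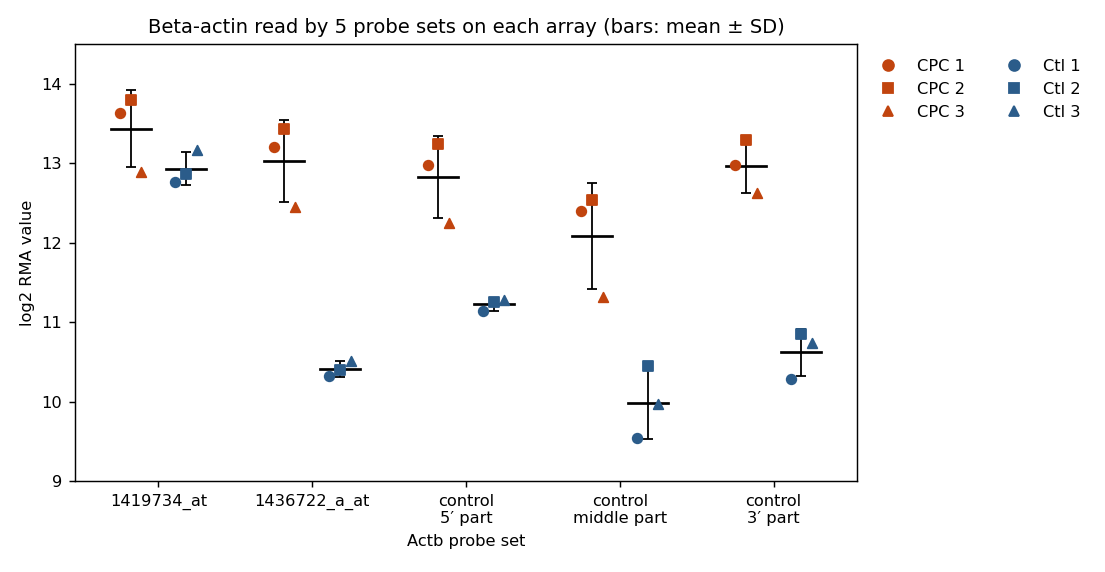
Log2 RMA value of the 2 Actb probe sets and the 3 Actb control probe sets on each array, CPC left and Ctl right of each tick, with mean and SD of 3 arrays as bars. Only 1419734_at overlaps between the groups, and CPC 3 is the lowest CPC array in all 5.

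The same controls speak to RNA or amplification quality on an actin transcript. Actb 3′ minus 5′ was 0.0022, 0.051 and 0.37 in CPC, against -0.85, -0.41 and -0.54 in Ctl. CPC was higher on every array, by 0.74 (exact permutation p = 0.1), while 3′ minus the middle control differed by 0.25 with overlap (exact permutation p = 0.5). For Gapdh, 3′ minus 5′ was 2.09, 2.55 and 3.53 in CPC, against 2.12, 1.77 and 2.21 in Ctl, a difference of 0.69 (exact permutation p = 0.3). CPC 3, the array with the largest Gapdh gap, was also the CPC array with the lowest Actb and Actg1, and the part of this in their values was not tested.

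Rae1 (an mRNA export factor), Eif2ak2 (the RNA-activated kinase PKR) and Snw1 (a splicing and transcription cofactor) lay nearest to Actb probe set 1419734_at, with root mean square differences of 0.0766, 0.120 and 0.125 over the 6 arrays. Rae1 read 10.14, 10.14 and 9.30 in CPC and 9.10, 9.12 and 9.57 in Ctl. Its low CPC 3 and high Ctl 3 follow from its choice by likeness to Actb. With a range of only 1.03 for this Actb probe set, many genes can lie close to it.

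Actg1, the gamma-actin that shares the cytoskeleton with Actb, had the widest spread of the actins in Ctl and, after Acta2, in CPC. Its probe set (1415779_s_at) read 12.51, 11.66 and 10.36 in CPC, against 10.89, 9.55 and 11.11 in Ctl. The groups overlapped, with CPC 3 below Ctl 1 and Ctl 3. The difference was 0.99 (SE 0.65, 95% interval -0.60 to 2.58, adjusted p = 0.410) and ran from 0.49 to 1.57 when 1 array was left out. This interval holds no change as well as a rise of up to 2.58. The suffix of this probe set, like that of the main Acta2 probe set, says that it can match several transcripts. Whether it also read another actin was not tested.

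The genes nearest to Actg1 were Mtmr2 (a lipid phosphatase, 0.175), Sparc (osteonectin, a matrix protein, 0.209) and Errfi1 (an inhibitor of epidermal growth factor receptor signalling, 0.226), by root mean square difference over the 6 arrays. Sparc read 12.72, 11.80 and 10.55 in CPC and 10.88, 9.19 and 11.37 in Ctl. Its low value on Ctl 2 follows from its choice by likeness to Actg1. Ctl 2 was also the Ctl array with the lowest means of the fibroblast, pericyte and endothelial lists. The pericyte mean was 7.83, 7.76 and 8.28 in CPC, against 10.17, 9.05 and 10.25 in Ctl. Of its 5 markers, 2 (Rgs5 and Abcc9) were lower in CPC and none was higher. Rgs5 (10.22) and Kcnj8 (5.89), another marker of this list, were lowest of the Ctl arrays on Ctl 2. Abcc9 showed no such dip, at 11.80, 11.81 and 12.04 in Ctl 1 to 3. Which cells the Abcc9 signal came from was not tested. Rgs5 did not pass without CPC 1, CPC 2, CPC 3, Ctl 1 or Ctl 3, so that only Abcc9 was lower then, and 3 markers were lower without Ctl 2. Without CPC 2, 1 pericyte marker was higher. The endothelial mean was 7.38, 7.37 and 7.62 in CPC, against 8.19, 7.25 and 8.63 in Ctl, with none of 6 markers past the threshold (0 at an unadjusted p under 0.05, and 1 lower after adjustment without Ctl 2). Of all 20677 genes, 2265 were higher and 2109 were lower at an unadjusted p under 0.05 (limma). Leukocyte markers averaged 7.53, 7.70 and 7.68 in CPC, against 7.33, 7.40 and 7.40 in Ctl. None of these 6 passed (1 higher at an unadjusted p under 0.05). The part of such cells in the Actg1 values was not tested.

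Muscle actins were then set against cytoplasmic actins by the difference of their changes, with 8 pairs of main probe sets compared. Actc1 minus Actb (1419734_at) on the same array was -7.58 to -6.60 in CPC and 0.14 to 0.50 in Ctl. The arrays of the groups did not overlap, and the changes differed by -7.32 (exact two-sided permutation test, p = 0.1, adjusted p = 0.4 over the 8 pairs). Since Actc1 was under background on CPC 2 and CPC 3, this size is not exact, and with Actc1 set to 6.55 on those arrays the difference was at least as large as -7.12. Actc1 against Actg1 differed by -7.80 (p = 0.1, exact), or at least -7.60 with the same bound. No p under 0.1 is possible with 3 against 3 arrays, so no pair could pass, and sizes are given as they are.

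For Acta1 and Acta2 the answer turned on the Actb probe set. Against 1419734_at, Acta1 less Actb differed by -0.44 (exact permutation p = 0.5) and Acta2 less Actb by 1.60 (exact permutation p = 0.3), with overlapping arrays for both. Against 1436722_a_at, Acta1 less Actb was -5.72 to -3.99 in CPC and -2.70 to -2.19 in Ctl, with no overlap and a difference of -2.55 (exact permutation p = 0.1, the smallest possible). Acta2 less Actb turned to -0.50 with that probe set (exact permutation p = 0.8). Against Actg1 the difference was -0.93 for Acta1 and 1.12 for Acta2 (exact permutation p = 0.4 each). The 2 pairs with Actg2 only repeat the change of the cytoplasmic actin, because Actg2 lay at background on every array, and are not given.

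**Figure D4:**
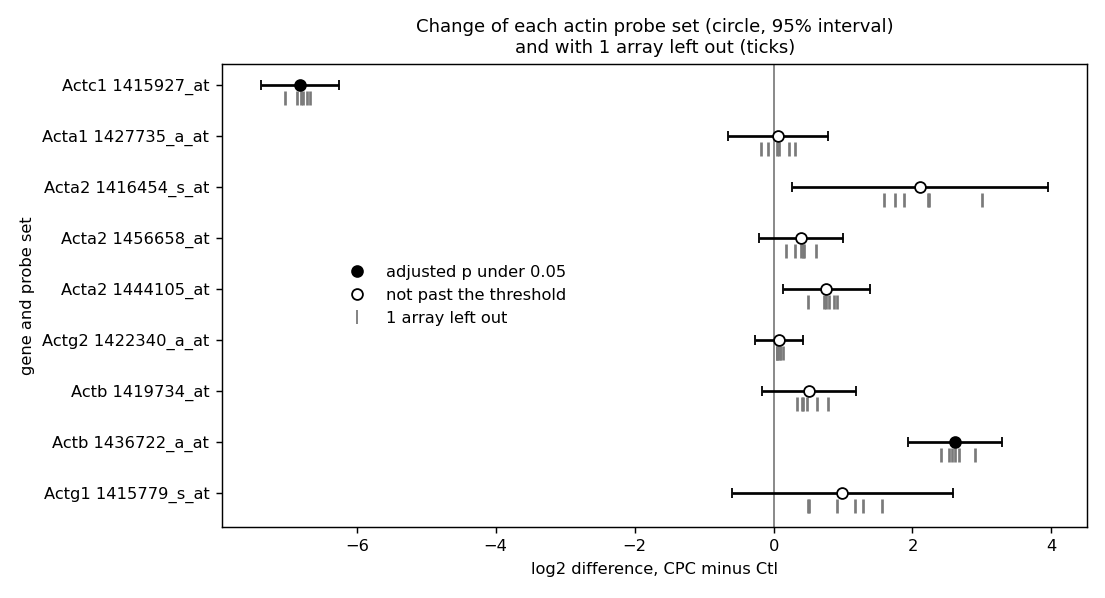
Log2 difference, CPC minus Ctl, of each actin probe set (circle, filled when the adjusted p is under 0.05) with its 95% interval, and the differences with 1 array left out as ticks below it. Actc1 at -6.81 and Actb 1436722_a_at at 2.62 are the filled circles, and the widest intervals belong to Acta2 1416454_s_at and Actg1.

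The proteins that bind, nucleate, fold and regulate actin were read from 6 lists, each gene from its brightest probe set by mean level. Of 88 measured genes out of 92 listed, each counted once, 5 were higher in CPC, 11 were lower and 72 did not pass. Over all genes, 1.15% were higher and 4.47% were lower. At an unadjusted p under 0.05 (limma), 2265 of all 20677 genes were higher and 2109 were lower. The median difference was 0.032 for these genes and 0.19 for all genes. The rises numbered 3 without Ctl 2 or without Ctl 3 and 11 without CPC 3. Shares of all genes with an array left out or with array weights are not given here, nor for the single lists below.

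Thin filament partners fell with Actc1. Of 11 measured, 7 were lower and none was higher (0 rises at a p under 0.05 before adjustment, 1 after adjustment with array weights). The median difference was -4.32. Tnni3 (cardiac troponin I) had the largest fall. It read 6.11, 7.11 and 6.99 in CPC, against 13.78, 13.92 and 13.60 in Ctl. Tnnt2, Tnnc1 (troponin C), Lmod2 (leiomodin, which lengthens thin filaments), Nebl (nebulette), Nrap and Actn2 (the Z-disc actin crosslinker) made up the rest. Tpm1 (tropomyosin) did not pass, at 13.87, 13.90 and 9.94 in CPC and 14.60, 14.60 and 14.45 in Ctl, with CPC 3 far from the others.

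SRF regulators gave 2 falls and no rise among 10 (2 rises at a p under 0.05 before adjustment). The median difference was -1.27, and without CPC 3 it was -0.45. Rock1 (a kinase that drives actomyosin contraction), picked as an example after its values were seen, read 10.99, 8.56 and 5.68 in CPC, against 10.84, 10.85 and 11.11 in Ctl, with CPC 3 far below the rest, and did not pass (adjusted p = 0.306). Without CPC 2 there was 1 rise. Myocd (myocardin, the muscle cofactor of SRF) read 7.68, 7.73 and 8.69 in CPC, against 12.04, 11.89 and 11.90 in Ctl (difference -3.91, SE 0.30, adjusted p = 0.00128). The groups stood far apart, and averaging both Myocd probe sets gave -2.13. Fhl2 (a LIM protein abundant in heart) was the other, at -3.61 (adjusted p = 0.00157).

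Among 19 genes for monomer binding and filament turnover, 2 were higher, 1 was lower and 16 did not pass. Tmsb10 (thymosin beta 10, which holds actin monomers) read 13.30, 13.69 and 13.30 in CPC, against 8.84, 9.96 and 10.20 in Ctl. It was 13.6-fold higher in CPC with no overlap (SE 0.38 on the log2 scale, adjusted p = 0.00367), and averaging its 5 probe sets gave a difference of 2.30. Cfl1 (cofilin, which severs filaments) was 2.97 higher (adjusted p = 0.00182). Cap2, a cyclase-associated protein of striated muscle, read 8.20, 8.12 and 8.48 in CPC, against 10.76, 11.98 and 10.64 in Ctl, and was 7.26-fold lower (adjusted p = 0.0105). Without CPC 3 the falls of this list numbered 3.

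Filament nucleators gave 1 rise and 1 fall among 18, with 3 rises without CPC 3 and 2 falls without Ctl 2. Arpc2, a subunit of the branching Arp2/3 complex, was higher, at 11.72, 12.31 and 12.32 in CPC, against 9.57, 9.37 and 10.23 in Ctl (difference 2.39, SE 0.30, adjusted p = 0.00809). Averaged over both Arpc2 probe sets this came to 1.23 (adjusted p = 0.0226). Fhod3, a formin of the cardiac sarcomere, was at least 9.27-fold lower, with all CPC arrays under background at 5.25 to 6.04 and Ctl at 9.60 to 9.96 (adjusted p = 0.000578).

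Of 16 genes for folding and processing of actin, Cct3 and Cct2 (subunits of the TRiC chaperonin that folds new actin) were higher and none was lower (0 at an unadjusted p under 0.05). Cct3 read 12.58, 13.07 and 12.62 in CPC, against 11.69, 11.00 and 11.23 in Ctl (difference 1.45, adjusted p = 0.0260), and Cct2 was 1.43 higher (adjusted p = 0.0173). Both calls were lost with some arrays left out. Cct3 did not pass without CPC 2, Ctl 2 or Ctl 3, and Cct2 did not pass without Ctl 1, Ctl 2 or Ctl 3. The differences themselves stayed within 1.29 to 1.64 for Cct3 and 1.22 to 1.56 for Cct2. Averaged over 7 probe sets, Cct3 differed by 0.87 and did not pass (adjusted p = 0.0616).

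None of 17 actin-related proteins, more distant relatives of the actins, passed the limma test. Before adjustment, 3 had a p under 0.05, 2 of them higher and 1 lower. By that rule, 2265 of all 20677 genes were higher and 2109 were lower. Actr3b, an isoform of the Arp2/3 subunit Arp3, had the smallest p, at 7.50, 7.75 and 7.93 in CPC, against 8.47, 8.54 and 8.57 in Ctl (difference -0.79, SE 0.17, adjusted p = 0.0555). Without CPC 1 there were 1 rise and 2 falls, without CPC 3 there were 2 rises and 1 fall, and with array weights there were 6 rises and 2 falls.

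**Figure D5:**
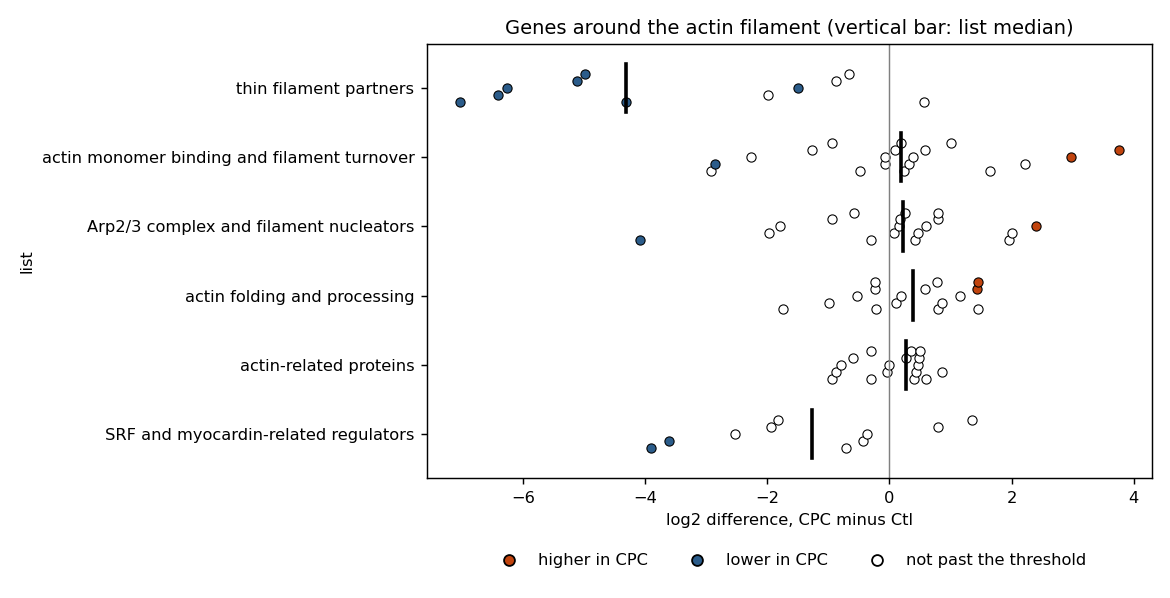
Log2 difference, CPC minus Ctl, of every measured gene in the 6 lists of actin partners, filled red when higher and blue when lower in CPC at an adjusted p under 0.05, with the list median as a bar. The thin filament list has its median at -4.32, and the medians of the turnover, nucleator, folding and actin-related lists lie between 0.18 and 0.38.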

How the data were processed

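Expression was measured on 6 mouse whole-genome Affymetrix arrays. The authors deposited log2 values that, per the submitters' processing notes, came from RMA and Partek, with no versions; amplification used a NuGEN kit. RMA scales arrays to 1 distribution, so a shift shared by most genes cannot be seen. They also deposited a table of their own fold changes and p-values, from which only the gene annotation was used. The genome build was not given in the sources used here.

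Of 45101 probe sets, 64 controls were set aside. Symbols were updated through the gene identifier (3174 changed). CPC and Ctl, grouped by sample title, were compared with limma 3.58.1 in R 4.3.3 (lmFit, eBayes, two-sided), with Benjamini-Hochberg adjustment over all 45037 probe sets and a threshold of 0.05. The test that the authors used on these arrays was not given in the sources used here. A fold is a bound against 6.55 if any array of its lower group was at or under that level. Differences of changes and of control probe sets used the exact permutation test (Python 3.11.15). The pipeline was tested on simulated data, with 50 of 45037 probe sets changed at each of 4 sizes. It recovered 6%, 46%, 72% and 80% of log2 changes of 1, 2, 3 and 5, and 9 of 111 calls were false. These arrays gave 478 rises and 1972 falls, far more than the 111 simulated calls, so the recovery rates need not hold here. Failing the test does not by itself exclude a change of 1 or 2. What is excluded for a probe set is read from its interval, such as -0.66 to 0.79 for Acta1.

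The members and lists were chosen with earlier results of these data known. Named were every actin probe set; for each actin with a range of at least 1, the 3 genes with the nearest pattern; per list the top rise and the top fall that passed, or the smallest p; and defining markers. Tpm1, Cfl1, Cct2, Fhl2, Rock1 and the other falls of the thin filament list were named after their values were seen. Alternatives covered scaling, dim probe sets, variance models, array weights, a replicate block, left-out arrays and the choice of probe set. A weight per group, the fit with controls, Actc1 set to background, list medians with left-out arrays and the CArG search with 1 mismatch were added after seeing the data. Protein sequences were not analysed here.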

Additional observations from a re-analysis of the deposited data

How the results depend on the processing

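The count of lower actin probe sets stayed at 1 under every alternative run. The count of higher ones, 1, became 0 without moderation of the variance and 4 with array weights, and ran from 1 to 2 with 1 array left out (2 without CPC 1, where Acta2 passed). Array weights (5.92 for CPC 2, 0.32 for CPC 1 and 0.23 for CPC 3) let Acta2 pass at 2.90 (1416454_s_at) and 0.60 (1444105_at) and Actb 1419734_at at 0.88. Acta1 ran from -0.18 to 0.30 with 1 array left out, and was negative at -0.18 without CPC 3 and -0.075 without Ctl 1. The difference of changes of Actc1 and Actb, -7.32, was -8.37 with the mean of the Actb probe sets and -9.43 with 1436722_a_at (with Actc1 at the background level, -7.12, -8.17 and -9.22). The Actb control gap of 0.74 was 0.25 with the middle control. Rises among the actin partners, 5, became 25 with array weights and ran from 3 to 11 with 1 array left out. The 11 falls became 24 with array weights. Those weights shrank the standard error of Actc1 from 0.23 to 0.13 and of Actb 1419734_at from 0.28 to 0.16. The share of all genes under these settings is not given here, so these counts cannot be read as particular to the partners. The cause was not tested.

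With the replicate number as a block, 1 actin probe set was higher and 1 was lower, the Actc1 difference stayed at -6.81 (adjusted p = 0.00747), and 3 partners were higher. Same-numbered arrays deviated together at r = -0.047, -0.013 and -0.108, so the numbers were not read as pairs. Of 407 alternative values, 358 were close to the main one (the same side of the threshold, within 1.5 times for counts or within 1 SD for values with no test), 41 moved further, 5 newly passed, 1 no longer passed and 2 changed sign. Some could not have come out otherwise. A threshold of 0.01 and a minimum log2 change of 1 kept each difference and could only remove calls. The share of close values is therefore no measure of how firm the results are.

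The number of arrays and signals at background, as for Actg2 and the weaker Acta2 probe sets, limit the precision.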
